A study of Homo sapiens with 18 samples.

Results

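The genes described here are 10 components and targets of the hypoxia response, chosen by name out of the 55128 genes of the expression table: the oxygen-regulated transcription factor subunits HIF1A and EPAS1, the prolyl hydroxylases EGLN1 and EGLN3, and the target genes VEGFA, ADM, BHLHE40, BNIP3, BNIP3L and KDM3A. All 10 were among the 12108 genes that passed the filter on low values and were tested. RNA was sequenced from T98G cells, a single established human glioblastoma line, 2 h after treatment, in 6 groups with 3 biological replicates each (A, B and C). Cells received the solvent DMSO alone, gnetin H (GH, a resveratrol trimer) at 8 µM, phenformin (a biguanide that inhibits complex I of the respiratory chain) at 100 µM, or 2-deoxyglucose (2DG, a glucose analogue that blocks glycolysis) at 10 mM. The remaining groups received GH plus phenformin or 2DG plus phenformin at the same doses. The 2DG dose is the one in the sample labels and in the methods of the study, whose results text names another for this experiment. The design asks how each inhibitor, alone and in combination, altered the transcriptome, and every treated group was compared with the same 3 DMSO libraries, so those comparisons share their controls.

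In normal air the EGLN hydroxylases modify the HIF alpha subunits, which are then bound by the VHL ubiquitin ligase and degraded. When oxygen is short the subunits persist, pair with ARNT and switch on genes for glycolysis, blood vessel growth and mitochondrial turnover, EGLN3 among them. Regulation of the subunits is largely at the level of protein, which these data do not measure, and several of the targets are also induced by other stress pathways.

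A hypoxia response element often holds ACGTG as its core. These letters, the only form of the core searched, were looked for on both strands in the 250 bases before the gene starts given by RefSeq (GRCh38.p14). The windows of 8 of the 10 genes were searched, 10 windows in all, and those of VEGFA and BNIP3L were not analysed here. The letters ACGTG occurred in 18.5% of all 35116 such windows, the palindrome CACGTG (the E-box, which holds ACGTG on both strands) in 6.34%, TGACG (the core of CREB and ATF sites) in 21.2% and TGATGNAA (a C/EBP-ATF composite) in 3.14%. Among the members, ACGTG was present before BHLHE40, where 4 matches included the overlapping pair of an E-box, before BNIP3, where the 2 matches were the overlapping pair of an E-box, and before EGLN1, with 1 match. The letters TGACG were found once before EGLN3 and once in 1 of the 2 HIF1A windows, and TGATGNAA before no member. The windows of the 2 genes with the highest folds below, BHLHE40 and ADM, are shown with that of BNIP3, which has the E-box but moved little, and capitals mark ACGTG or its reverse complement.
BHLHE40 (chr3:4979187-4979436, plus strand): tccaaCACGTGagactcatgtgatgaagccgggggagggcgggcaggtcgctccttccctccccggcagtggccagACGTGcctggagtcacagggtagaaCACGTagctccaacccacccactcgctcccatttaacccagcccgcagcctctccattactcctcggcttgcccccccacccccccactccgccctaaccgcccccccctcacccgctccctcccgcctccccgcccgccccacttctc
BNIP3 (chr10:131981924-131982173, minus strand): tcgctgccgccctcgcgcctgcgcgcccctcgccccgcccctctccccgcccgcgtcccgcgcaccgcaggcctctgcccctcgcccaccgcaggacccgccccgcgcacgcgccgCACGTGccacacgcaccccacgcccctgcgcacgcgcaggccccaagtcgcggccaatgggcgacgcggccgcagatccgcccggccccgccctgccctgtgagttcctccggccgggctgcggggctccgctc
ADM (chr11:10304823-10305072, plus strand): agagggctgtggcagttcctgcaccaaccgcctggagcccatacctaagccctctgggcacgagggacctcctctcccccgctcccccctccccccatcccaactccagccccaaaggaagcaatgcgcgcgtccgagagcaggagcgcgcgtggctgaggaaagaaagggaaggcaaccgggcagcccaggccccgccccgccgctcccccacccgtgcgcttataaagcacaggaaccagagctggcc
The letters ACGTG were not in this ADM window, where other forms of the core were not searched. The annotation used for the deposited values starts all 3 genes further upstream than RefSeq does. A match is a description of the letters and does not show that a factor binds there.

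Each library held between 18417756 and 22497604 mapped fragments, as recovered from the steps of the deposited values. The members were well covered, from 449 fragments for EGLN3 in its lowest library to 9409 for BNIP3 in its highest. The line expressed VIM (808 to 1063 FPKM, a fragment count corrected for exon length and for the number of mapped reads), CD44, CAV1, FN1 and TNC, whereas NES was near absent, at no more than 0.046 FPKM. Of 12 markers of other cell types, CD3E, CDH1, ALB and HBB were at 0 in all 18 libraries, and only CD68 (8.79 to 27.3 FPKM), a lysosomal protein, and SNAP25 (0.555 to 0.991 FPKM) passed the filter. The 12 markers summed to 9.56 to 16.8 FPKM in DMSO, 14.6 to 20.3 with GH, 9.86 to 12.2 with phenformin, 21.3 to 26.8 with 2DG, 13.7 to 24.9 with GH plus phenformin and 22.5 to 28.1 with 2DG plus phenformin, nearly all of it CD68, and the part of this in the results was not tested. Libraries differed in how a gene's value depended on its GC content: per 10 percentage points of GC the log2 value changed by -0.31 and -0.24 in DMSO A and B but by 0.05 in DMSO C, by 0.14 to 0.30 in 2DG, and by -0.20 in GH plus phenformin A against 0.24 in B and C. The change was -0.37 to -0.22 with phenformin, -0.18 to 0.04 with GH and 0.08 to 0.32 with 2DG plus phenformin. These trends partly followed treatment. A technical trend and a treatment effect related to GC content cannot be told apart here, and a correction may remove both. GC content ranged from 38.7% in HIF1A to 59% in ADM, so values corrected for the trends with GC content and exon length are given beside the results they touch. That correction moved the median change of all genes by 0.11 for 2DG, by 0.10 for GH plus phenformin against phenformin and by 0.13 for 2DG plus phenformin against phenformin (log2), and corrected values include this shift.

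The members did not respond as 1 block. In the deposited values EPAS1, VEGFA, ADM and BHLHE40 were above DMSO with 2DG and in either combination, while EGLN3 and BNIP3L were below it. In those values HIF1A itself passed the test in none of the 5 comparisons with DMSO (limma, adjusted p under 0.05 over all genes tested). GH changed 3 of the 10 genes: BHLHE40 rose, as did 2.29% of all genes, and ADM and EGLN3 fell, as did 3.63%. With the replicate letter as a block over all 18 libraries, 5 changed, since BNIP3L (adjusted p = 0.0345) and KDM3A (adjusted p = 0.016) then also fell. Only the GH and DMSO letters met the rule for pairing, and the share of all genes under the block is not given. Phenformin alone changed none of the 10 by limma, by limma-voom on recovered fragments or at an unadjusted p under 0.05 (0 in each case), beside 0.339% of all genes that rose and 0.206% that fell. 2DG raised EPAS1, VEGFA, ADM and BHLHE40 and lowered EGLN3, BNIP3 and BNIP3L, 4 and 3 of 10 against 24.7% and 30.3% of all genes. GH plus phenformin raised the same 4 genes and lowered EGLN3, BNIP3L and KDM3A, against 9.4% and 18.6% of all genes. 2DG plus phenformin again raised those 4 and lowered EGLN3, BNIP3, BNIP3L and KDM3A, against 21.1% and 32.8%. The median change of the members lay between -0.12 (GH) and 0.00 (phenformin) on the log2 scale, beside 0.01 and -0.02 for all genes. With the GC and length correction 6 members rose and 2 fell with 2DG (27.2% and 13.5% of all genes). The counts were 4 and 1 with GH plus phenformin (18.3% and 13.2%) and 5 and 1 with 2DG plus phenformin (24.1% and 20.7%). HIF1A then rose in each of these groups, BNIP3L was called in none, and ADM fell with 2DG. EPAS1 was no longer called with 2DG plus phenformin, nor VEGFA with GH plus phenformin.

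**Figure D1:**
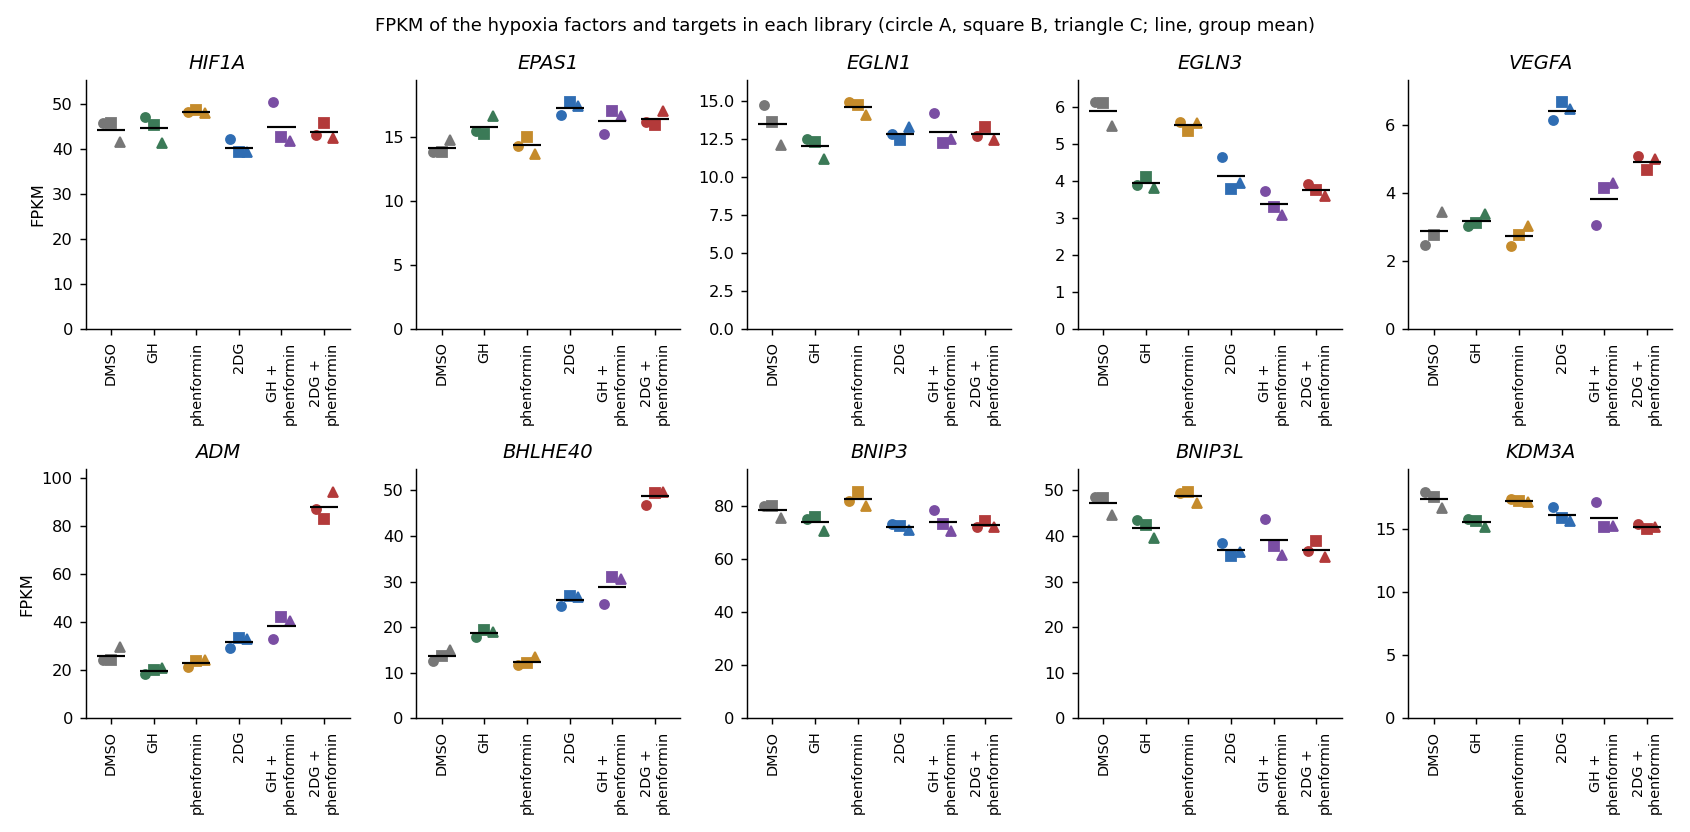
FPKM of each of the 10 genes (y axis, from 0) in every library, by treatment (x axis); circles, squares and triangles are replicates A, B and C and the line is the group mean of 3. ADM and BHLHE40 stand highest with 2DG plus phenformin, at 88.2 and 48.7 FPKM on average, VEGFA is highest with 2DG alone, at 6.43 FPKM, and EGLN3 is below every DMSO library in all groups that received GH or 2DG.

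At the stricter thresholds of a 2-fold change, a Bonferroni-adjusted p of at most 0.05 and a mean of at least 1 FPKM, 3 members were called. VEGFA was called with 2DG (0.429% of all genes), BHLHE40 with GH plus phenformin (0.545%), and ADM and BHLHE40 with 2DG plus phenformin (1.37%). No member was called at these thresholds with GH (0.0991% of all genes) or phenformin (0.00826%). At an unadjusted p under 0.05 limma gave 7 and 0 members, and the share of all genes at that looser threshold is not given. The VEGFA call did not survive the GC and length correction (log2 fold change 0.78), and the BHLHE40 call with GH plus phenformin was absent without DMSO replicate A, which left 0 members called.

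HIF1A, the alpha subunit that is degraded in normal air, was among the more abundant members. Its values were 45.7, 45.7 and 41.4 FPKM in DMSO, 47, 45.3 and 41.3 with GH, 48.2, 48.6 and 48 with phenformin, and 42.2, 39.2 and 39.2 with 2DG. The combinations gave 50.3, 42.7 and 41.8 FPKM (GH plus phenformin) and 43, 45.7 and 42.3 FPKM (2DG plus phenformin). All treated groups except phenformin overlapped the DMSO range, and the spread within GH plus phenformin, with replicate A the highest of all 18 libraries, was as wide as the distance between group means. The 2DG difference of -0.14 ± 0.067 (log2, SE) had an adjusted p of 0.0887. HIF1A has a low GC content, with 11.1% of the tested genes below it, and the correction for GC content and length turned this difference to 0.16 (adjusted p = 0.00567) and gave 0.22 for GH plus phenformin (adjusted p = 0.000632) and 0.29 for 2DG plus phenformin (adjusted p = 3.7e-05). The direction for HIF1A thus depended on that correction.

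EPAS1 (HIF-2 alpha), the second subunit, was lower in FPKM than HIF1A in every library and moved slightly upward. It measured 13.8, 13.8 and 14.8 FPKM in DMSO, 14.3, 15 and 13.7 with phenformin, 15.5, 15.2 and 16.6 with GH, and 16.7, 17.7 and 17.4 with 2DG. The 3 2DG libraries lay above every DMSO library, a 1.22-fold difference (log2 0.29 ± 0.052, adjusted p = 0.000712) that remained with the correction (0.13, adjusted p = 0.0127). With GH the difference was 0.16 (adjusted p = 0.0876), and it passed the test with the correction (0.13, adjusted p = 0.0394). The combinations gave 15.2 to 17 FPKM (GH plus phenformin, log2 0.20, adjusted p = 0.00977) and 15.9 to 17 FPKM (2DG plus phenformin, log2 0.21, adjusted p = 0.00392). The first of these had an adjusted p of 0.0527 without GH plus phenformin replicate B and of 0.131 in a fit on the compared groups alone. The second fell to 0.07 with the correction (adjusted p = 0.131). No pair of neighbours among GH and the 3 higher groups was separate in its libraries.

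EGLN1 (PHD2), the main hydroxylase of HIF-1 alpha in normal air, ranged only from 11.2 to 14.9 FPKM over the 18 libraries. None of its changes against DMSO passed the test, and every neighbouring pair of groups overlapped. With the correction it was 0.14 higher with 2DG (adjusted p = 0.00999) and 0.10 higher with 2DG plus phenformin (adjusted p = 0.0332), where the uncorrected differences were -0.06 and -0.07, and with GH it was at -0.13 (adjusted p = 0.0375) beside -0.16 uncorrected.

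EGLN3 (PHD3), a hydroxylase whose gene is itself induced by HIF, fell in each group that received GH or 2DG. DMSO libraries held 6.12, 6.09 and 5.49 FPKM and phenformin libraries 5.58, 5.36 and 5.56. With GH the values were 3.88, 4.1 and 3.81 FPKM, with 2DG 4.64, 3.77 and 3.95, with GH plus phenformin 3.73, 3.3 and 3.07, and with 2DG plus phenformin 3.92, 3.76 and 3.58. All 12 libraries of these 4 groups lay below all 6 of DMSO and phenformin. The log2 changes were -0.57 ± 0.080 with GH (adjusted p = 0.000672), -0.51 with 2DG (adjusted p = 0.00027), -0.79 with GH plus phenformin (adjusted p = 7.4e-06) and -0.64 with 2DG plus phenformin (adjusted p = 2.2e-05), the last of these a level 0.643 times that of DMSO. Each kept its direction and its call in all alternatives run, and adding phenformin to GH or 2DG moved EGLN3 by -0.22 (adjusted p = 0.088) and -0.13 (adjusted p = 0.431). The annotated span of EGLN3 covers SPTSSA, a serine palmitoyltransferase subunit gene on the same strand at up to 23.4 FPKM, so fragments of these genes may be hard to separate. SPTSSA, looked at for this reason after its values were seen, also fell with 2DG (-0.27, adjusted p = 0.0116), GH plus phenformin (-0.38, adjusted p = 0.00261) and 2DG plus phenformin (-0.42, adjusted p = 0.00062), but none of these 3 SPTSSA decreases passed the test with the correction (0.06, -0.14 and -0.08, adjusted p = 0.457, 0.105 and 0.348). With GH, where EGLN3 fell by 0.57, SPTSSA changed by -0.08 (adjusted p = 0.68). The part of SPTSSA in the EGLN3 values was not tested.

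VEGFA, the secreted growth factor that drives blood vessel formation, had the largest change of the 10 genes with 2DG alone in the deposited values, while with the correction BHLHE40 was ahead of it (0.93 against 0.78). It measured 2.46, 2.78 and 3.43 FPKM in DMSO, 3.04, 3.12 and 3.38 with GH and 2.44, 2.77 and 3.02 with phenformin. With 2DG it reached 6.15, 6.67 and 6.47 FPKM, a 2.20-fold rise (log2 1.14 ± 0.126, adjusted p = 1.6e-05) with no overlap. The corrected change was 0.78 and still passed the test. With 2DG plus phenformin it stood at 5.08, 4.69 and 5.01 FPKM, above all DMSO libraries (log2 0.76, adjusted p = 0.000239) and below all 2DG libraries. This last difference of -0.38 ± 0.126 had an adjusted p of 0.0724, and of 0.000483 with the correction. GH plus phenformin gave 3.05, 4.14 and 4.31 FPKM, overlapping DMSO, and its rise of 0.39 (adjusted p = 0.0326) did not pass the test with the correction (0.14, adjusted p = 0.0903) or without any 1 of DMSO A, DMSO B, GH plus phenformin B or GH plus phenformin C, with adjusted p up to 0.157.

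ADM, the precursor of the vasodilator peptide adrenomedullin, had the widest range of the 10 genes. It measured 24.2, 24.1 and 29.8 FPKM in DMSO, 18.4, 20 and 21.1 with GH, 21.2, 23.7 and 24.4 with phenformin and 29.3, 33.3 and 33.2 with 2DG. GH plus phenformin raised it to 32.9, 42.4 and 40.6 FPKM and 2DG plus phenformin to 87.1, 83.1 and 94.4 FPKM. Both combinations lay above every DMSO library, and the lowest 2DG plus phenformin library held more than the highest library of any other group. Against DMSO the rise was 1.48-fold with GH plus phenformin (log2 0.56 ± 0.103, adjusted p = 0.00104) and 3.39-fold with 2DG plus phenformin (log2 1.76, adjusted p = 1.2e-08), with corrected log2 values of 0.28 and 1.35. In a fit on the compared groups alone the first of these had an adjusted p of 0.0596. The responses to the single agents were less certain. The decrease with GH (-0.39, adjusted p = 0.0382) was lost on leaving out any 1 of the 6 libraries, with adjusted p from 0.0569 to 0.147, and it had an adjusted p of 0.132 in a fit on the compared groups alone, of 0.00301 with the replicate block and of 1.7e-05 with the correction (-0.48). The increase with 2DG (0.30, adjusted p = 0.0257) was lost without DMSO A, DMSO B, 2DG B or 2DG C (adjusted p up to 0.104) and turned to -0.18 with the correction (adjusted p = 0.0117). ADM has a higher GC content than 87.3% of the tested genes.

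BHLHE40 (DEC1), a transcriptional repressor that is induced by HIF and acts on the circadian clock, showed the most regular pattern. The values were 12.6, 13.6 and 15 FPKM in DMSO and 11.7, 12.1 and 13.4 with phenformin. They were 17.8, 19.4 and 19 FPKM with GH, 24.7, 26.8 and 26.6 with 2DG, 25.1, 30.9 and 30.5 with GH plus phenformin, and 46.9, 49.4 and 49.7 with 2DG plus phenformin. In this order of group means, only phenformin and DMSO, and 2DG and GH plus phenformin, overlapped their neighbour. The rise over DMSO was 1.36-fold with GH (log2 0.44 ± 0.080, adjusted p = 0.00438), 1.89-fold with 2DG (log2 0.92, adjusted p = 2.0e-06), 2.08-fold with GH plus phenformin (log2 1.06, adjusted p = 3.7e-07) and 3.52-fold with 2DG plus phenformin (log2 1.82, adjusted p = 6.1e-10). All 4 passed the test with the GC and length correction and without any 1 library of the compared groups. Fitted on the GH and DMSO libraries alone, the GH rise had an adjusted p of 0.0606.

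BNIP3 and BNIP3L, receptors on the outer mitochondrial membrane that recruit the autophagy machinery, moved little. BNIP3, which has processed pseudogenes that can share its fragments, was the most abundant member, from 70.4 to 85.3 FPKM, and its decreases with 2DG (-0.12, adjusted p = 0.0268) and 2DG plus phenformin (-0.11, adjusted p = 0.046) did not pass the test with median-of-ratios scaling (adjusted p = 0.179 and 0.44) or with the correction (adjusted p = 0.102 and 0.106). Leaving out 1 library ended the 2DG call for DMSO A, DMSO B, 2DG B and 2DG C and the other call for 5 of 6 libraries, DMSO C being the exception. BNIP3L measured 48.6, 48.4 and 44.7 FPKM in DMSO and 38.4, 35.6 and 36.5 with 2DG, without overlap (-0.36 ± 0.064, adjusted p = 0.000739). It was also lower with GH plus phenformin (-0.28, adjusted p = 0.00557) and 2DG plus phenformin (-0.35, adjusted p = 0.000515). In a fit on the compared groups alone the GH plus phenformin decrease had an adjusted p of 0.117. BNIP3L has a low GC content (39.1%), and with the correction none of these 3 decreases passed the test (adjusted p = 0.339, 0.217 and 0.401).

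KDM3A (JMJD1A), an oxygen-dependent histone H3 lysine demethylase, lay between 15 and 18 FPKM in all 18 libraries. It was lower with 2DG plus phenformin, at 15.4, 15 and 15.2 FPKM against 18, 17.6 and 16.7 in DMSO (-0.20 ± 0.047, adjusted p = 0.00333), a difference of 0.01 with the correction (adjusted p = 0.931). With GH plus phenformin the difference was -0.13 (adjusted p = 0.0459), and it did not pass the test without DMSO A, DMSO B, GH plus phenformin B or GH plus phenformin C (adjusted p up to 0.195) or with the correction (adjusted p = 0.85).

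**Figure D2:**
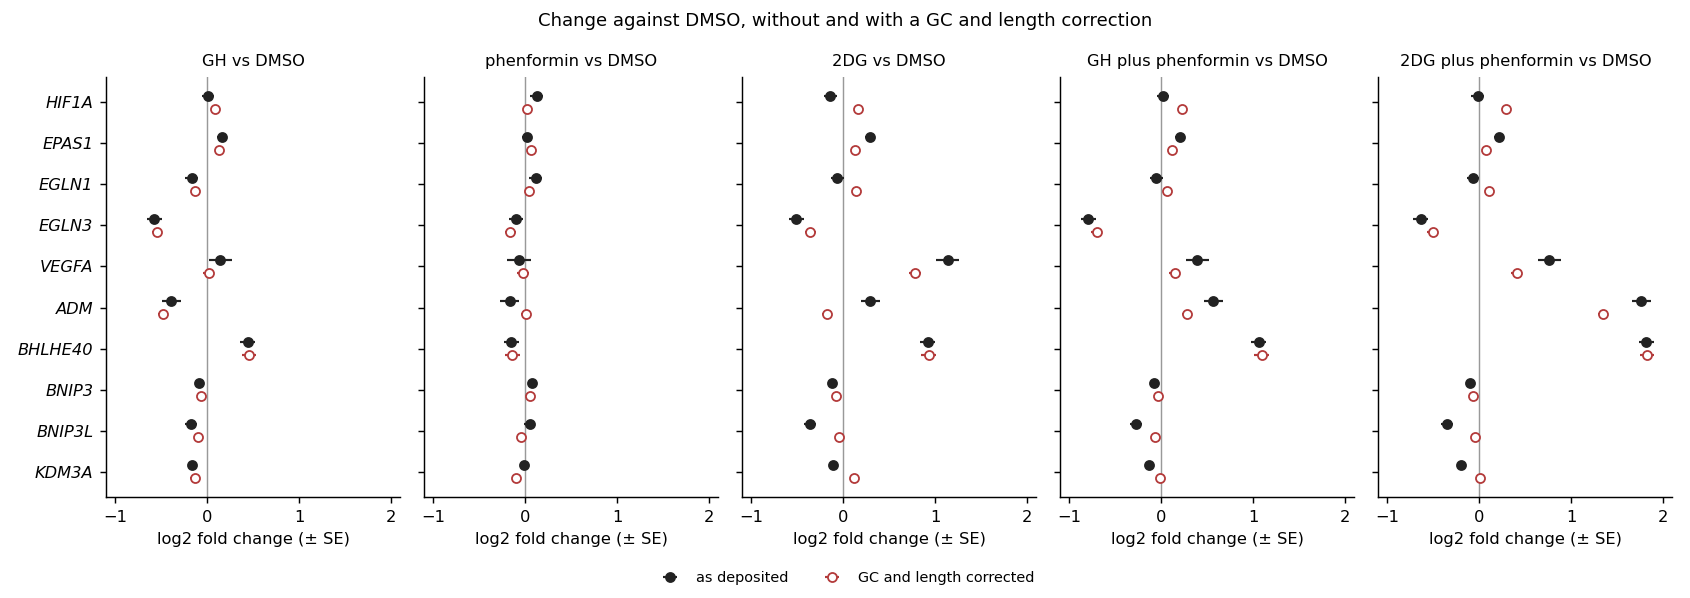
Log2 fold change against DMSO (x axis) of the 10 genes (rows) in 5 treatments (panels), from limma on 3 libraries a group; filled points use the deposited values, open points the values corrected for GC content and exon length, and bars are 1 SE. The BHLHE40 change with 2DG moves from 0.92 to 0.93 with the correction, that of EGLN3 goes from -0.51 to -0.36, the VEGFA rise with 2DG goes from 1.14 to 0.78, and the ADM value with 2DG goes from 0.30 to -0.18.

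Whether a combination differed from the sum of its single agents was tested as an interaction on the log2 scale. For 2 of the 10 genes, ADM and BHLHE40, both combinations exceeded the sum, beside 1.45% of all genes for GH with phenformin and 1.38% for 2DG with phenformin. The share of all genes below the sum was 3.73% and 3.59%, with 0 members among them by limma, by limma-voom and at an unadjusted p under 0.05. For ADM the single changes of GH and phenformin summed to -0.56 while the combination reached 0.56, a difference of 1.12 ± 0.145 (adjusted p = 0.000501). The ADM changes of 2DG and phenformin summed to 0.13 against 1.76 observed, a difference of 1.63 ± 0.145 (adjusted p = 9.1e-06). For BHLHE40 the sum was 0.29 against 1.06 with GH plus phenformin (difference 0.77 ± 0.114, adjusted p = 0.00147). The BHLHE40 sum with 2DG plus phenformin was 0.77 against 1.82 (difference 1.05 ± 0.114, adjusted p = 6.2e-05). These 4 differences remained past the threshold with the correction, at 0.76, 1.52, 0.77 and 1.03. VEGFA went the other way with 2DG plus phenformin, at 0.76 against a sum of 1.07, but that difference of -0.31 ± 0.178 had an adjusted p of 0.436, and of 0.0228 with the correction. EGLN3 differed from its sums by -0.12 ± 0.114 and -0.03 ± 0.114. For KDM3A the GH interaction of 0.04 (adjusted p = 0.71) became 0.22 with the correction (adjusted p = 0.0489).

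**Figure D3:**
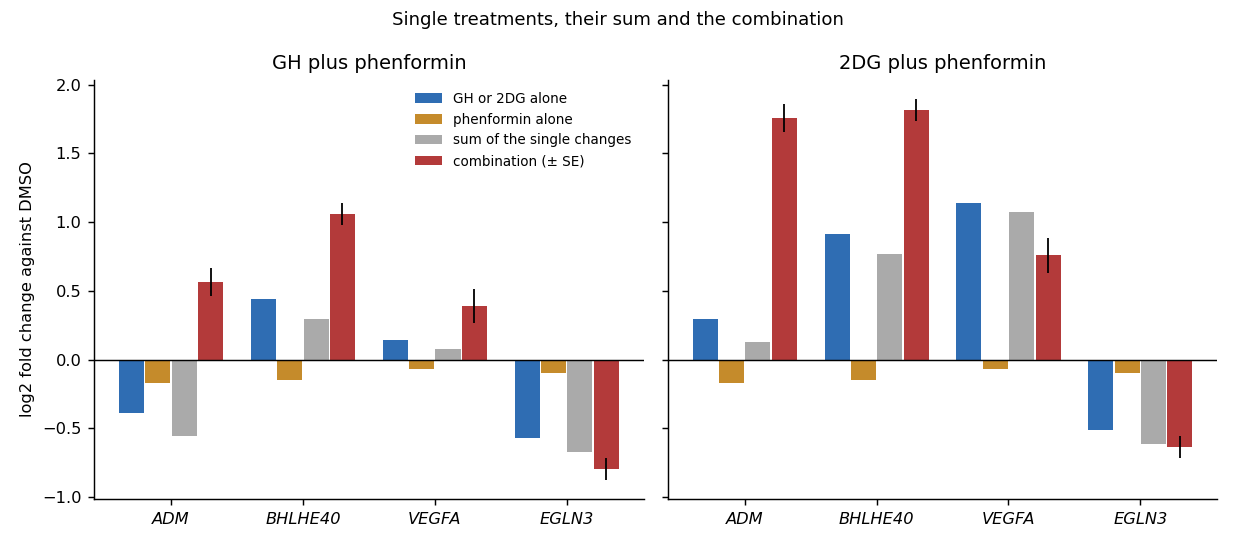
Log2 fold change against DMSO (y axis) of ADM, BHLHE40, VEGFA and EGLN3 for GH or 2DG alone, phenformin alone, the sum of those 2 changes, and the combination, with 1 SE on the combination; 3 libraries a group. The ADM and BHLHE40 combination bars exceed the sums, by 1.12 and 0.77 with GH and by 1.63 and 1.05 with 2DG, while the EGLN3 combination bars are lower than the sums by 0.12 and 0.03.

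Phenformin added to another agent was also tested directly. Against GH alone, GH plus phenformin raised ADM (log2 0.95, adjusted p = 3.0e-05) and BHLHE40 (0.62, adjusted p = 0.000177), 2 of 10 genes against 3.3% of all genes, and lowered none (9.22% of all genes), where 1 member was lower at an unadjusted p under 0.05 and 0 by limma-voom. Without GH plus phenformin replicate A, 5 members changed, and the share of all genes in that fit is not given. With the correction EGLN1 (0.19, adjusted p = 0.00248) and HIF1A (0.14, adjusted p = 0.0305) rose too, beside 7.43% of all genes. Against 2DG alone, 2DG plus phenformin raised ADM (1.46, adjusted p = 2.7e-07) and BHLHE40 (0.90, adjusted p = 3.4e-06), against 3.53% of all genes, and lowered none (7.69% of all genes), where VEGFA was lower at an unadjusted p under 0.05 and by limma-voom. With the correction VEGFA fell, beside 12.5% of all genes, and HIF1A rose as well (0.13, adjusted p = 0.041), beside 4.04%. Against phenformin alone, GH plus phenformin raised EPAS1, VEGFA, ADM and BHLHE40 and lowered EGLN3, BNIP3, BNIP3L and KDM3A, beside 23.5% and 24.2% of all genes. That count of 8 members became 5 without GH plus phenformin B and 4 without GH plus phenformin C, fits for which the shares of all genes are not given. With the correction it was also 5, since HIF1A, VEGFA, ADM and BHLHE40 rose and only EGLN3 fell, beside 29.3% and 11.2% of all genes. EPAS1 was then at 0.05 (adjusted p = 0.306), BNIP3 at -0.09 (adjusted p = 0.0503) and BNIP3L at -0.02 (adjusted p = 0.693), and KDM3A turned to 0.09 (adjusted p = 0.126). 2DG plus phenformin against phenformin raised the same 4 and lowered those 4 and EGLN1, beside 29.2% and 36.2% of all genes. The EGLN1 call (-0.19, adjusted p = 0.0298) was lost without phenformin A, phenformin B, 2DG plus phenformin A or 2DG plus phenformin C, with adjusted p up to 0.0939, and with median-of-ratios scaling (adjusted p = 0.123). With the correction HIF1A, VEGFA, ADM and BHLHE40 rose and BNIP3 and EGLN3 fell, beside 32.2% and 17.6% of all genes. EPAS1 was then at 0.0084 (adjusted p = 0.868), and EGLN1, BNIP3L and KDM3A turned to 0.059, 0.0022 and 0.11, none of them past the test.

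The comparisons between agents do not use DMSO as their reference. GH was lower than 2DG in VEGFA (-0.99, adjusted p = 7.0e-05), ADM (-0.68, adjusted p = 0.000247) and BHLHE40 (-0.47, adjusted p = 0.000619), 3 of 10 genes against 14.6% of all genes, and higher in BNIP3L (0.18, adjusted p = 0.0384), 1 of 10 against 24.7%. The BNIP3L difference turned to -0.05 with the correction (adjusted p = 0.391). With it 6 members were lower with GH, beside 17.2% of all genes. The added ones were EGLN1 (-0.26, adjusted p = 8.9e-05), KDM3A (-0.25, adjusted p = 0.000676) and EGLN3 (-0.19, adjusted p = 0.0217). GH plus phenformin was lower than 2DG plus phenformin in ADM (-1.20, adjusted p = 3.5e-06) and BHLHE40 (-0.76, adjusted p = 2.6e-05), against 2.16% of all genes, and higher in none (8.33% of all genes), with 0 members also at an unadjusted p under 0.05 and by limma-voom. With the correction VEGFA (-0.26, adjusted p = 0.0121) and EGLN3 (-0.20, adjusted p = 0.0369) were lower as well, beside 3.63% of all genes.

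The wider pathway was described with lists of known genes, to be read beside the shares of all genes that rose and fell: 24.7% and 30.3% with 2DG, 9.4% and 18.6% with GH plus phenformin, 21.1% and 32.8% with 2DG plus phenformin. Corrected counts are to be read beside the corrected shares, 27.2% and 13.5%, 18.3% and 13.2%, and 24.1% and 20.7% in the same order. Of 15 housekeeping genes, 7 rose and 3 fell with 2DG, 1 rose with GH plus phenformin, and 6 rose and 1 fell with 2DG plus phenformin. Of 12 tested oxygen-sensing and HIF complex genes other than the members, 3 rose and 6 fell with 2DG, 2 rose and 4 fell with GH plus phenformin, and 3 rose and 5 fell with 2DG plus phenformin. With the correction 3, 2 and 3 of them rose and 1, 3 and 3 fell. The genes that rose were CREBBP, EGLN2 and ELOB with 2DG, CITED2 and CREBBP with GH plus phenformin, and CITED2, CREBBP and ELOB with 2DG plus phenformin. Those that fell were RBX1, VHL, HIF1AN and ELOC in both combinations, and CUL2 with 2DG plus phenformin. CITED2, which competes with HIF for the coactivators CREBBP and EP300, fell with GH (-0.51, adjusted p = 0.000487) and 2DG (-0.30, adjusted p = 0.00349) and rose with GH plus phenformin (0.25, adjusted p = 0.0161) and 2DG plus phenformin (0.66, adjusted p = 3.8e-06). Both CITED2 combinations exceeded the sum of single agents (interaction 0.71, adjusted p = 0.000836, and 0.91, adjusted p = 5.7e-05). VHL, the substrate receptor of the ligase that marks hydroxylated HIF, was called only in the combinations among the 5 comparisons with DMSO (-0.43, adjusted p = 0.000577, and -0.49, adjusted p = 8.7e-05), and its interactions were -0.43 (adjusted p = 0.0263) and -0.45 (adjusted p = 0.0176). HIF1AN, the asparagine hydroxylase of HIF, fell with 2DG (-0.21) and in the combinations of GH (-0.31) and 2DG (-0.39) with phenformin, the first of which did not pass the test with the correction.

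Glucose transporters and enzymes of glucose metabolism that hypoxia induces rose in larger number. Of the 22 tested, 17 rose and 2 fell with 2DG (median log2 change 0.51, all genes -0.05), 6 rose with GH plus phenformin (median 0.29, all genes -0.02), and 17 rose and 1 fell with 2DG plus phenformin (median 0.47, all genes -0.05). With the correction 14, 10 and 11 rose. SLC2A3, a glucose transporter with a closely similar paralogue whose fragments may be hard to separate, rose 1.49-fold, 1.52-fold and 2.68-fold in these groups (adjusted p = 3.3e-07, 1.5e-07 and 4.3e-12). HK2, a hexokinase of the enzyme class that phosphorylates 2DG, rose by 0.64, 0.28 and 0.64 on the log2 scale and was the 1 gene of the list that rose with GH (0.27, adjusted p = 0.0028). LDHA and GBE1 were the 2 genes that fell with 2DG (-0.18 and -0.24), calls that both ended with the correction.

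Of 32 other HIF targets, 11 rose and 13 fell with 2DG, 3 rose and 7 fell with GH plus phenformin, and 9 rose and 12 fell with 2DG plus phenformin, with medians of -0.12, -0.04 and -0.05 beside -0.05, -0.02 and -0.05 for all genes. With the correction 13, 7 and 11 rose and 4, 7 and 8 fell. The 3 that rose with GH plus phenformin were STC2, EDN1 and LOX. DDIT4, an inhibitor of mTOR signalling that ATF4 also induces, rose 3.72-fold with 2DG (adjusted p = 2.4e-08) and 2.01-fold with 2DG plus phenformin (adjusted p = 6.5e-06) and was 0.73 times its DMSO level with GH (adjusted p = 0.0261). Like VEGFA, DDIT4 was lower with 2DG plus phenformin than with 2DG (-0.89, adjusted p = 7.3e-05). HILPDA, a lipid droplet protein, fell with GH (-0.48), 2DG (-0.17), GH plus phenformin (-0.80, adjusted p = 7.0e-07) and 2DG plus phenformin (-0.72, adjusted p = 7.9e-07). STC2, a secreted glycoprotein, rose in all 5 comparisons, between 0.17 with phenformin (adjusted p = 0.0468, a call that limma-voom did not make) and 0.53 with GH plus phenformin (adjusted p = 1.1e-07).

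The partners of the members in their own processes moved in mixed directions. In the VEGF and adrenomedullin list 5 of 13 genes were expressed enough to be tested. With 2DG 1 rose and 1 fell, with GH plus phenformin 1 rose, and with 2DG plus phenformin 1 rose and 1 fell. VEGFC rose with GH plus phenformin (0.29, adjusted p = 0.00475). NRP1, a VEGF coreceptor, fell with 2DG (-0.25, adjusted p = 0.000569), a call that ended with the correction (-0.04). Of 14 mitophagy receptors and adaptors, 4 rose (SQSTM1, PHB2, FKBP8 and PINK1) and 8 fell with 2DG, led by NBR1 (-0.39, adjusted p = 1.9e-05) and GABARAPL1 (-0.48, adjusted p = 0.000194), and 2 rose (PHB2 and FKBP8) and 6 fell with 2DG plus phenformin. With the correction these counts were 3 and 6 with 2DG and 3 and 4 with 2DG plus phenformin. Of 15 other Jumonji demethylases, 4 rose and 4 fell with 2DG, 1 rose and 1 fell with GH plus phenformin, and 0 rose and 3 fell with 2DG plus phenformin. With the correction 3, 3 and 2 rose and 1, 2 and 5 fell. KDM5B, KDM5A and KDM4A were those that fell with 2DG plus phenformin (-0.56, -0.32 and -0.25), and the KDM5A call ended with the correction. Among 12 circadian clock genes, 3 rose and 3 fell with 2DG, 1 rose and 2 fell with GH plus phenformin, and 1 rose and 5 fell with 2DG plus phenformin. With the correction 3, 2 and 2 rose and 2, 3 and 5 fell. NR1D1 rose with 2DG (1.49, adjusted p = 0.00279), GH plus phenformin (1.17, adjusted p = 0.0167) and 2DG plus phenformin (1.99, adjusted p = 0.000231). BHLHE41, the paralogue of BHLHE40, went down in the same 3 groups, by -0.52 (adjusted p = 0.0023), -0.41 (adjusted p = 0.0144) and -0.58 (adjusted p = 0.00074). BHLHE40 rose in these 3 groups and also with GH, for which no BHLHE41 value is given.

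**Figure D4:**
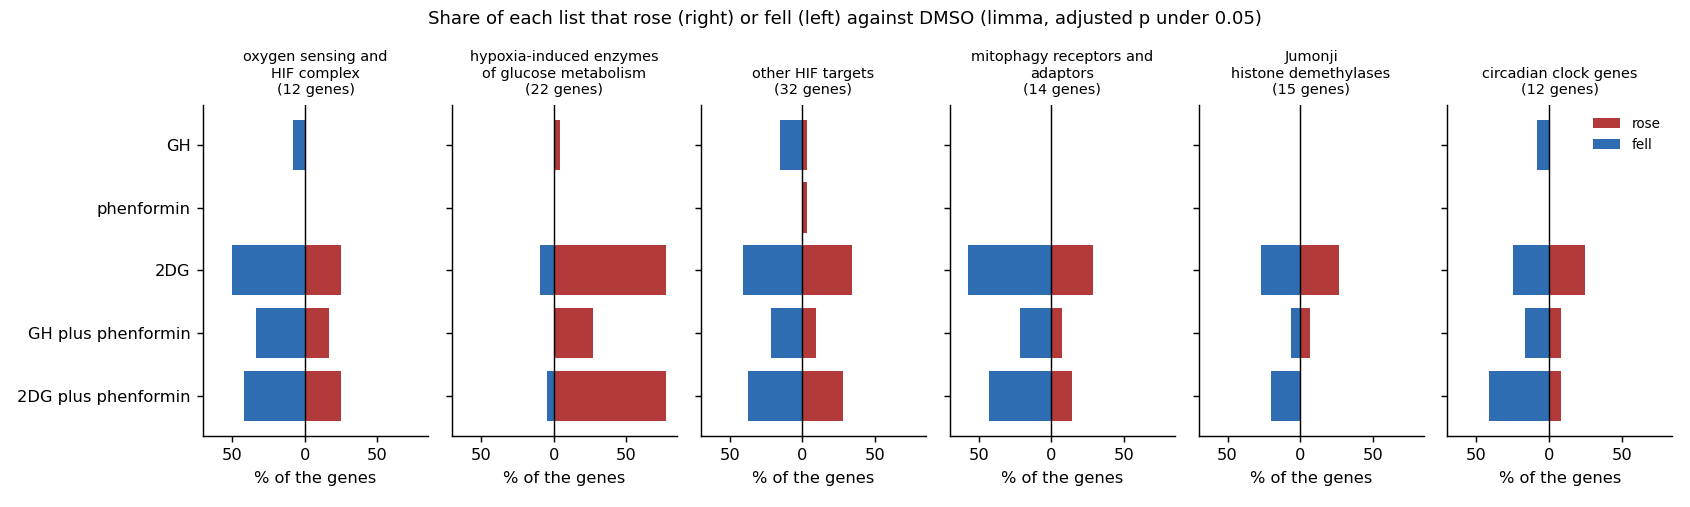
Share of the tested genes of 6 lists (panels; x axis in percent) that rose (right) or fell (left) against DMSO in each of 5 treatments (rows), by limma at an adjusted p under 0.05. Glucose metabolism is the list with most genes on the right, 17 of 22 with 2DG and with 2DG plus phenformin, beside 2 and 1 of 22 on the left.

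Across the 18 libraries, given as a description over libraries that share treatment and depth, the log2 values of ADM and BHLHE40 had a Pearson correlation of 0.887, BNIP3 and BNIP3L one of 0.926, and EPAS1 and BNIP3L one of -0.926. Correlations of VEGFA were 0.743 with BHLHE40 and 0.578 with ADM. Of all tested genes, those most like ADM were SLC2A3 (0.960), PIM1, IER3, IGFBP3 and JUN (0.947), and those most like BHLHE40 were DUSP10 (0.987), GDF15 (0.981), DIS3L2, MYC and SNAI2 (0.957). Those most like VEGFA were USP36 (0.976), ZNF592, ZNF496, RAC2 and POLR2H (0.965).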

How the data were processed

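RNA of 18 libraries (3 biological replicates in each of 6 groups) was prepared with a stranded mRNA kit. The deposited values are FPKM per gene, made by the authors with CLC Genomics Workbench 11 by strand-specific mapping to GRCh38 with Ensembl release 89. The FPKM steps gave whole fragments at a tolerance of 0.001 for 99.992% of the genes above 0. From these values log2(FPKM + 0.1) was computed, genes of at least 0.5 FPKM in 3 libraries were kept (12108), and 1 model with a coefficient per group (12 residual degrees of freedom) was fitted with limma 3.58.1 (R 4.3.3) with a mean-variance trend. P-values were adjusted over all tested genes (Benjamini-Hochberg), and a gene rose or fell at an adjusted p under 0.05. Fold changes are on the log2(value + pseudocount) scale, which understates those of low genes. The GC content and exon length came from GENCODE 44 for 12022 genes, and the correction removed each library's trend of deviations from the gene mean. Scripts were tested on simulated data.

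Replicate letters were taken to pair libraries where the deviations of every same-lettered pair correlated above 0.1, which held only for GH and DMSO (0.428, 0.116 and 0.546 for A, B and C). With the GC and length correction the B pair of GH and DMSO was at 0.0813, below that limit. The block was fitted over all 18 libraries, the groups that did not meet the rule included. Alternatives were other pseudocounts, filters, scalings, the GC and length correction, the replicate block, fits on the compared groups alone, each library left out, and limma-voom on recovered fragments, the last chosen after seeing the data. Members and lists were chosen with earlier results of these data known. Named genes were the members, the 4 genes at most per list that had the lowest adjusted p in any comparison with DMSO, genes in counts of 5 or less, and, for each member that changed by at least 1 (log2), the 5 genes most correlated with it. SPTSSA was added after its values were seen.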

Additional observations from a re-analysis of the deposited data

Results flagged for a closer look

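The change that phenformin brought to ADM and BHLHE40 on top of GH or 2DG differed from its change alone. The GH and 2DG interactions were not tested against each other. For ADM, phenformin alone differed from DMSO by -0.17 on the log2 scale, which did not pass the test (limma, adjusted p = 0.58). On top of GH its effect was larger by 1.12 and on top of 2DG by 1.63 (interaction in limma, adjusted p = 0.000501 and 9.1e-06). For BHLHE40, phenformin alone differed from DMSO by -0.15, which did not pass the test either (adjusted p = 0.528). Its effect was larger by 0.77 on top of GH and by 1.05 on top of 2DG (interaction, adjusted p = 0.00147 and 6.2e-05).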

How the results depend on the processing

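Among the counts of changed members, 328 values stayed on the same side of their threshold or within 1.5 times, 13 were higher and 13 lower. Values for single members kept their call, or stayed without one in either direction, in 2367 cases. They gained a call in 93, lost one in 102 and reversed in 28. A reversal was counted only where the main fit or the alternative made a call. The cause was not tested. GH against DMSO had 3 changed members, 5 with the GC and length correction, 5 with the replicate block, 6 with both, 1 in a fit on the compared groups alone, and 9 without DMSO C and GH plus phenformin A. With the correction 5.33% of all genes rose and 4.54% fell in that comparison. In the other settings here, and where libraries were left out, the shares of all genes are not given. Counts of members there cannot be read as particular to the members. In fits on the compared groups alone, GH plus phenformin had 2 changed members against DMSO and 4 against phenformin. The correction gave 4 members for GH plus phenformin against GH (5 with the replicate block added, and 5 without DMSO C and GH plus phenformin A), 5 for GH plus phenformin against phenformin, and 4, with or without the block, in the comparison of 2DG plus phenformin with 2DG and in that between the combinations. At 2-fold, 0 members were called for 2DG with a pseudocount of 1, with the correction (with or without the block) and in a fit on the compared groups alone, and 0 for GH plus phenformin in the last of these.

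Leaving out 1 library gave 2 to 4 changed members for GH, 5 to 9 for 2DG, 4 to 8 for GH plus phenformin (4 without replicate B) and 7 to 8 for 2DG plus phenformin against DMSO. It gave 2 to 5 for GH plus phenformin against GH (5 without GH plus phenformin A), 4 to 10 for GH plus phenformin against phenformin, 3 to 6 for GH against 2DG, 2 to 4 for the GH interaction (4 without GH plus phenformin A), and 0 to 1 for GH plus phenformin at 2-fold.

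All reversals counted in this way came with the correction, at the same value with and without the replicate block. Values without a call also changed sign on leaving out 1 library, such as HIF1A for GH plus phenformin (0.02, from -0.07 to 0.07). HIF1A became 0.16 for 2DG, 0.29 for 2DG plus phenformin, 0.20 for GH plus phenformin against phenformin and 0.27 for 2DG plus phenformin against phenformin. EGLN1 became 0.14 for 2DG, 0.10 for 2DG plus phenformin (0.059 when set against phenformin). ADM became -0.18 for 2DG. BNIP3L became 0.0022 for 2DG plus phenformin against phenformin and -0.048 for GH against 2DG. KDM3A became 0.12 for 2DG, 0.0055 for 2DG plus phenformin, 0.089 for GH plus phenformin against phenformin and 0.11 for 2DG plus phenformin against phenformin. Apart from GH with DMSO, the letters did not meet the rule for pairing. Some still correlated, such as A and C of GH plus phenformin and DMSO (0.592 and 0.556, with B at -0.329). The block moved no other count of changed members by more than 1.5 times. Having 3 libraries a group, a single time of 2 h and RNA alone limits these results.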
